A study of Mus musculus with 4 samples.

Results

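Basal keratinocyte adhesion and migration genes were followed in mouse skin after 3 days of topical NEDD8i. The set holds 32 genes of the 56953 in the deposited count table, chosen by gene symbol from a list of basal keratins, integrins, laminins and hemidesmosome and focal adhesion genes, and each symbol matched 1 row. RNA came from dorsal skin of wild type C57BL/6J mice, described as full thickness at harvest, while the extraction text speaks of cells. NEDD8i, which the labels name no further, was applied at 10 µM in one group, and the other received DMSO, the solvent. Each group had 2 libraries made from transcript 3′ ends, and no label says whether they came from separate mice, so the p-values below measure the spread between these libraries, which may be technical. The age and sex of the mice are not given in the labels.

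Basal keratinocytes are the dividing cells that sit on the epidermal basement membrane, and they carry the keratin pair Krt5 and Krt14. They are anchored by hemidesmosomes, in which the integrin α6β4 and the collagen Col17a1 span the membrane and the plakins Dst and Plec tie them to keratin filaments. When keratinocytes migrate into a wound they loosen these anchors and use β1 and αv integrins, which connect through talin, vinculin and kindlin to actin.

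Of the 32 genes, 31 had enough reads to be tested, and none passed edgeR's quasi-likelihood F test at an adjusted p of 0.05, which 0.782% of the 11388 genes tested passed. None was called higher, against 0.667% of all tested genes, and none lower, against 0.114%. The integrin subunits Itgb1, Itgb6, Itga2 and Itga3, the hyaluronan receptor Cd44 and the actin linker Vcl were at higher levels in both NEDD8i libraries than in both DMSO libraries. The integrin subunit Itgb5 and the laminin chain Lama5 were lower in both. These 8 were the genes of the set at an unadjusted p below 0.05, 25.8% of the 31 against 16.5% of all tested genes, with 6 higher (8.62% of all tested genes) and 2 lower (7.86%). No basal keratin or hemidesmosome gene was among these 8. The set was chosen with earlier results of these data known. Its shares, here and below, are therefore descriptions and not a test of the set.

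Changes are given as log2 fold changes of NEDD8i relative to DMSO, and levels as CPM, read counts scaled to a common library size with TMM factors. The median log2 fold change was 0.22 for the 31 genes and -0.0031 over all tested genes, and 19 of the 31 (61.3%) had a positive value against 49.9%. Both NEDD8i libraries were above both DMSO libraries for 9 of the 31 genes, where 25% of all tested genes were, and below both for 5, where 22.9% were. The median standard error among the 31 was 0.37, and the smallest change of any gene called in this comparison was 1.67 in size.

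**Figure D1:**
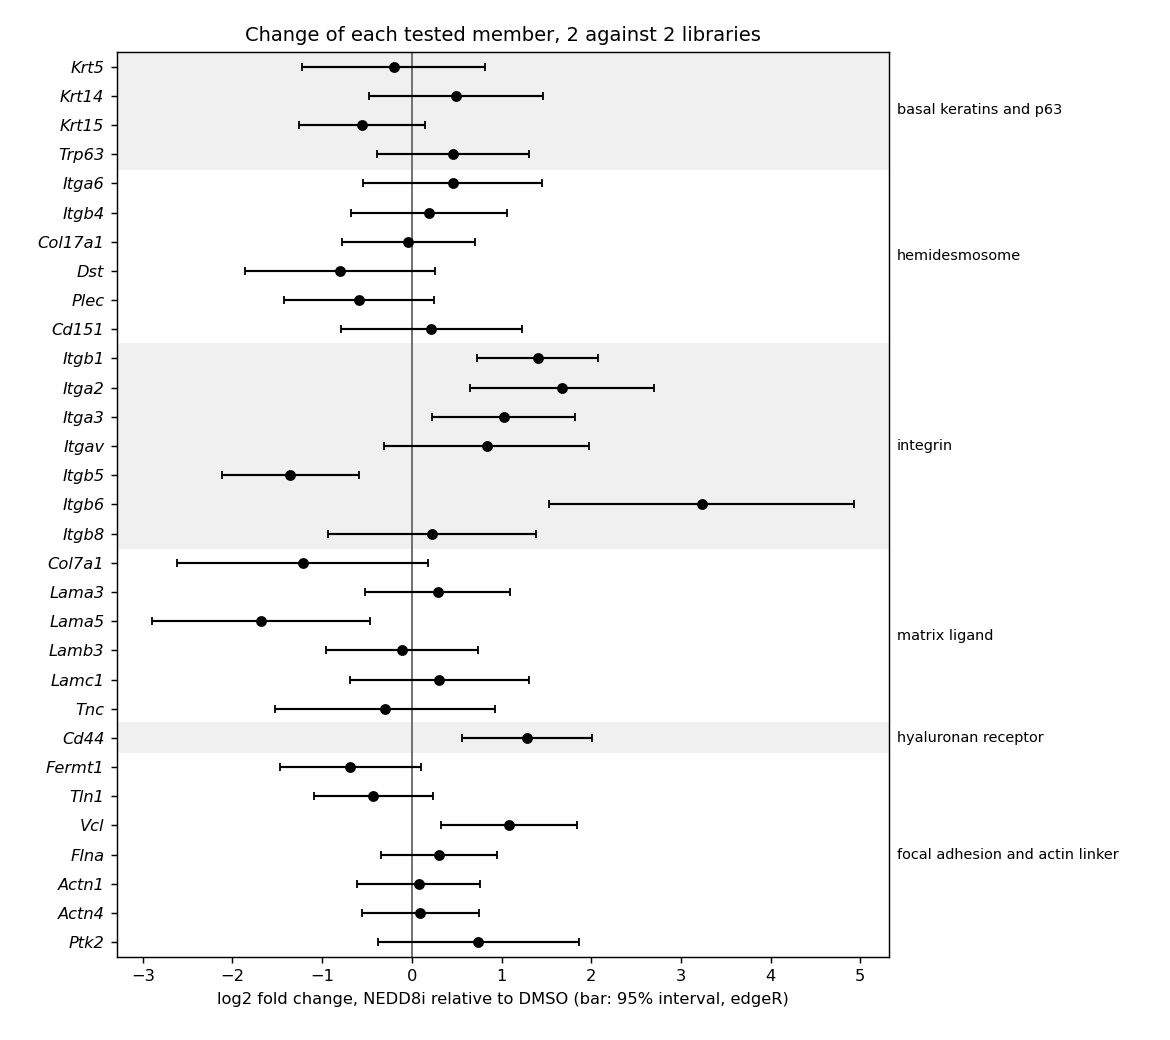
Log2 fold change of each of the 31 tested genes (x axis; y axis: gene, grouped by role), NEDD8i relative to DMSO, with points for the edgeR estimate and bars for its 95% interval. The 8 intervals that lie wholly on one side of 0 belong to Itgb1, Itga2, Itga3, Itgb6, Cd44 and Vcl on the higher side and to Itgb5 and Lama5 on the lower.

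The libraries were checked against their labels before single genes were read. Total counts ran from 5639791 to 8856572, of which 52.6% to 61.7% fell on 3 ribosomal RNA genes, and the 32 genes took 0.998% (replicate 1) and 1.77% (replicate 2) of the other reads in DMSO, and 1.41% and 1.40% in the NEDD8i group. All 8 basal keratinocyte markers, each of them also a gene of the set, were detected in every library, with summed levels of 3268 to 6421 CPM. Markers of the dermis were sparse for full thickness skin: 10 fibroblast markers summed to 11.2 to 79.9 CPM, 8 endothelial markers to 1.09 to 2.48 CPM with Cdh5 at 0 counts in all 4 libraries, and 7 smooth muscle and pericyte markers to 1.201 to 2.72 CPM. The basal sum was highest in DMSO replicate 2. So was that of 10 suprabasal keratinocyte markers, at 5030 and 8481 CPM in DMSO and 4760 and 4168 CPM after NEDD8i. Of these suprabasal markers edgeR called 2 lower. DMSO replicate 1 stood apart in the sums of 3 marker lists. Its 11 hair shaft and inner root sheath markers were at 6605 CPM, while the other DMSO library had 20.8 CPM and the NEDD8i libraries 15.9 and 421 CPM. Its melanocyte markers were at 360.02 CPM, against 57.8 to 61.5 CPM in the other libraries, and its adipocyte markers at 74.2 CPM, against 6.16 to 10.8 CPM. The adipocyte difference rested on 1 gene, Fabp4, at 70.5 CPM in DMSO replicate 1. Adipoq had 0 reads in that library, and Lpl was lower there than in the other libraries. Wounded keratinocyte markers, 9 genes with the keratins Krt6a and Krt16 among them, summed to 559 and 647 CPM in DMSO and 6376 and 6639 CPM after NEDD8i. Krt17, also in this list, overlapped between the groups, at 264 and 79.5 CPM in DMSO and 223 and 183 CPM after NEDD8i. The part of suprabasal, hair, melanocyte, adipocyte and dermal RNA and of the wound program in the values below was not tested. In bulk skin fewer cells of a type and less RNA per cell cannot be told apart.

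The 2 DMSO libraries differed from each other by more than 1.5-fold for 18 of the 31 genes (58.1%, against 45.4% of all tested genes), and the 2 NEDD8i libraries for 3 (9.68%, against 31.0%). DMSO replicate 2 was the higher of the pair for 21 genes (67.7%, against 50.2% of all tested genes). The fits below that leave out 1 DMSO library therefore differ among themselves. They rest on a single DMSO library whose spread is taken from the other group, and they show how a value depends on that library, not a separate finding. They called many genes: 10.4% of all tested genes without DMSO replicate 1 and 10.7% without DMSO replicate 2.

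**Figure D2:**
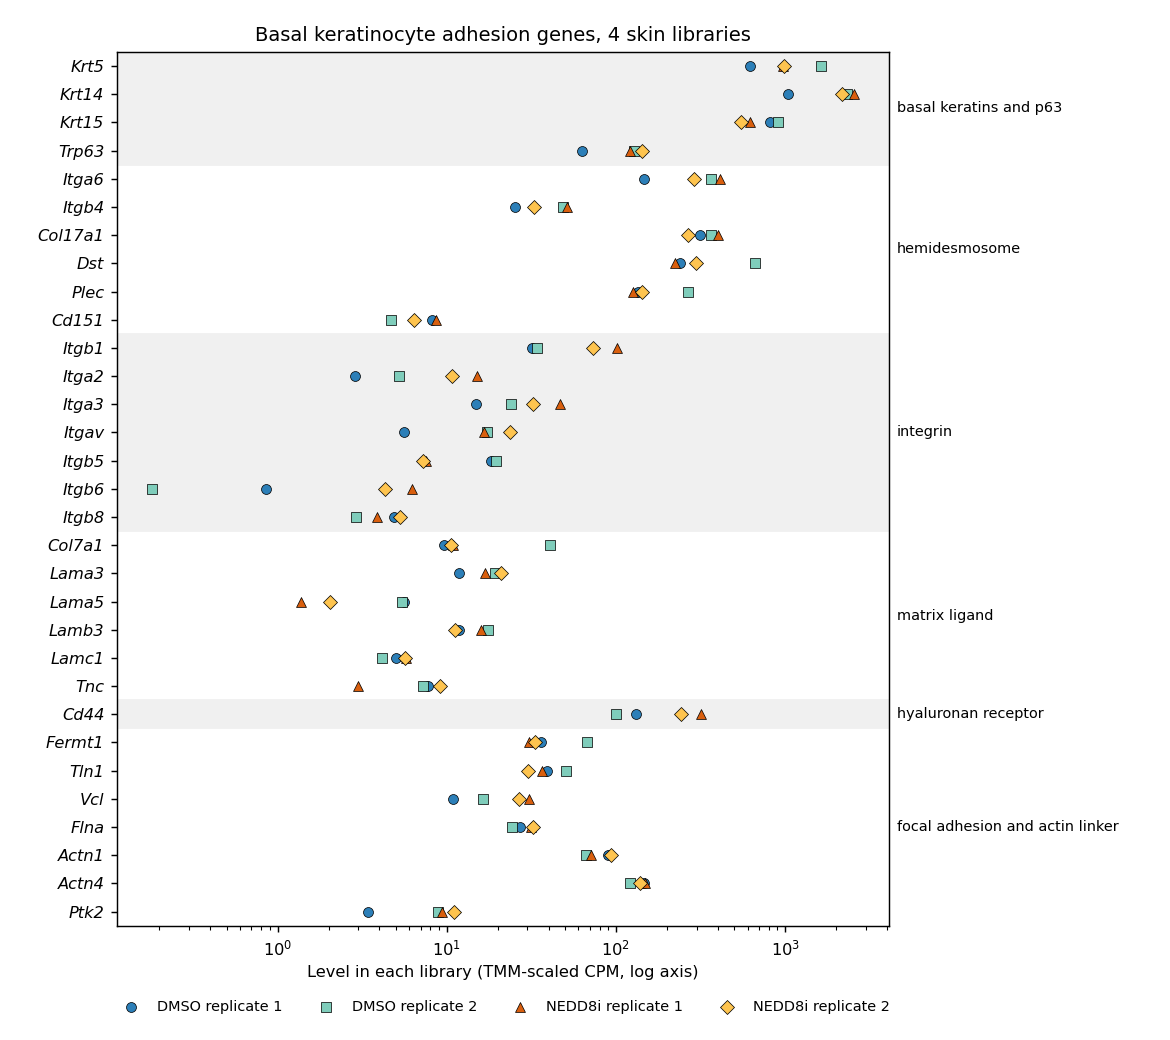
Level of each tested gene (x axis, TMM-scaled CPM on a log axis; y axis: gene, grouped by role) in the 4 libraries, 1 point a library. For Krt5, Krt14, Trp63, Itga6, Dst and Plec the DMSO libraries lie further apart than the NEDD8i libraries, whereas for Itgb1, Cd44, Itgb5 and Lama5 the groups are separated.

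Of the 4 basal keratin and p63 genes, Krt15 alone was separated between the groups. Of all tested genes, 25% were above and 22.9% below DMSO in both NEDD8i libraries. Krt5, the type II keratin of the basal layer (ENSMUSG00000061527.8, chromosome 15, 101615505 to 101621333, minus strand, coordinates of the deposited table, taken to be GRCm39), stood at 624 and 1627 CPM in DMSO and at 969 and 986 CPM after NEDD8i, values being given here and below with replicate 1 first. Both NEDD8i values lay between the DMSO values, and the log2 fold change was -0.20 (SE 0.45, 95% interval -1.22 to 0.81, edgeR adjusted p = 0.87). Krt14, its type I partner (ENSMUSG00000045545.9, chromosome 11, 100093988 to 100098374, minus strand), was at 1040.3 and 2314 CPM in DMSO and 2559 and 2163 CPM after NEDD8i. Only DMSO replicate 1 was low, and the log2 fold change was 0.49 (SE 0.43, 95% interval -0.47 to 1.46, edgeR adjusted p = 0.63). Within a library, where scaling cancels, Krt14 had 1.67 and 1.422 reads per Krt5 read in DMSO and 2.64 and 2.19 after NEDD8i. These values did not overlap, but the ratio was not tested. Other partner ratios separated the groups too, Itga6 per Itgb4 among them, while Dst per Plec overlapped.

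Krt15, a keratin of resting basal and follicle stem cells, had 815 and 904 CPM in DMSO and 619 and 552 CPM after NEDD8i. Both NEDD8i values were below both DMSO values, with a log2 fold change of -0.55 (95% interval -1.25 to 0.15, edgeR adjusted p = 0.422). Trp63, the gene of the transcription factor p63 that maintains the basal layer (ENSMUSG00000022510.15, chromosome 16, 25502513 to 25710852, plus strand), was at 63.2 and 128 CPM in DMSO and 120 and 142 CPM after NEDD8i. DMSO replicate 1 alone was low here too, and the log2 fold change was 0.46 (SE 0.37, 95% interval -0.38 to 1.30, edgeR adjusted p = 0.601). Without DMSO replicate 2 the edgeR fit called Krt14 (1.201, adjusted p = 0.0171) and Trp63 (1.07, adjusted p = 0.038) higher, and without DMSO replicate 1 their log2 fold changes were 0.018 and 0.027. Krt5 changed sign in the same way, at 0.67 without DMSO replicate 2 and -0.75 without DMSO replicate 1.

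Hemidesmosome genes overlapped between the groups in all 6 cases, as did 5934 of the 11388 genes tested. Itga6, the α subunit of the hemidesmosome integrin (ENSMUSG00000027111.17, chromosome 2, 71617284 to 71687115, plus strand), had 147 and 366 CPM in DMSO and 412 and 290 CPM after NEDD8i, for a log2 fold change of 0.45 (SE 0.44, 95% interval -0.55 to 1.46, edgeR adjusted p = 0.671). Its partner Itgb4 (ENSMUSG00000020758.16, chromosome 11, 115865535 to 115899238, plus strand) had 25.2 and 48.7 CPM in DMSO and 51.4 and 32.8 CPM after NEDD8i, for a log2 fold change of 0.19 (SE 0.38, 95% interval -0.68 to 1.06, edgeR adjusted p = 0.859). Both subunits were lowest in DMSO replicate 1 and highest in NEDD8i replicate 1, and Itga6 without DMSO replicate 2 was called higher (1.28, edgeR adjusted p = 0.0131) but stood at -0.073 without DMSO replicate 1.

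Col17a1, the transmembrane collagen that autoantibodies recognise in pemphigoid (ENSMUSG00000025064.16, chromosome 19, 47634783 to 47680533, minus strand), was nearly level, at 316 and 367 CPM in DMSO and 399 and 265 CPM after NEDD8i. Its log2 fold change was -0.04 (SE 0.33, 95% interval -0.78 to 0.70, edgeR adjusted p = 0.969), the smallest in size of the 31 genes. The interval leaves room for a change of less than 1 in either direction.

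The plakin genes had negative log2 fold changes that did not pass the test. Dst, whose epidermal product links hemidesmosomes to keratin, had 239 and 666 CPM in DMSO and 223 and 296 CPM after NEDD8i, with a log2 fold change of -0.80 (95% interval -1.86 to 0.25, edgeR adjusted p = 0.442). Plec, encoding plectin, had 135 and 268 CPM in DMSO and 126 and 142 CPM after NEDD8i, with a log2 fold change of -0.59 (95% interval -1.43 to 0.25, edgeR adjusted p = 0.481). For both genes DMSO replicate 2 was the library that stood out, and without it the log2 fold changes were 0.14 and 0.00066, whereas without DMSO replicate 1 edgeR called both lower, at -1.37 (adjusted p = 0.000294) and -1.01 (adjusted p = 0.014). Dst makes neuronal, muscle and epidermal products, which a count per gene does not separate. Cd151, a tetraspanin that binds laminin-binding integrins, had only 26 to 70 reads a library and a log2 fold change of 0.22 (95% interval -0.79 to 1.22).

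Among the other integrins, the β1 chain and its collagen and laminin partners were higher after NEDD8i, without reaching the threshold. Itgb1 (ENSMUSG00000025809.16, chromosome 8, 129412135 to 129459681, plus strand), the common β chain of the migration integrins, had 32 and 34.2 CPM in DMSO (224 and 189 reads) and 102 and 73.4 CPM after NEDD8i (818 and 611 reads). The DMSO libraries lay close together at 33.1 ± 1.57 CPM (mean ± SD, n = 2) and both NEDD8i libraries were above them, at 87.5 ± 19.9 CPM (n = 2). The log2 fold change was 1.40 (SE 0.30, 95% interval 0.73 to 2.07), a 2.64-fold difference, with an edgeR adjusted p of 0.0703, the smallest of the set and 185th of the 11388 genes by unadjusted p. It was called with DESeq2 (adjusted p = 0.00603), which called 3.64% of all tested genes.

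Itga2, the collagen-binding partner of β1, had 2.86 and 5.25 CPM in DMSO and 15 and 10.7 CPM after NEDD8i, on 20, 29, 121 and 89 reads. The groups did not overlap, and the log2 fold change was 1.67 (95% interval 0.65 to 2.70, edgeR adjusted p = 0.128). Itga3, the laminin-binding partner, had 14.9 and 23.9 CPM in DMSO and 46.4 and 32.3 CPM after NEDD8i, for a log2 fold change of 1.02 (95% interval 0.23 to 1.82, edgeR adjusted p = 0.196). Without DMSO replicate 2 both were called higher by edgeR, Itga2 at 2.18 (adjusted p = 0.000452) and Itga3 at 1.424 (adjusted p = 0.00236), and without DMSO replicate 1 neither was (1.28, adjusted p = 0.0595, and 0.71, adjusted p = 0.214). Itga5, the fibronectin-binding partner, had 0 reads in 3 libraries and 4 in NEDD8i replicate 1, too few to test. Depending on the library 3 reads equal 0.36 to 0.543 CPM, which is as much as a count of 0 allows, and no fold is given for Itga5.

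None of the αv integrin genes passed the test, and Itgb6 and Itgb5 had log2 fold changes of opposite sign. Itgb6 (ENSMUSG00000026971.16, chromosome 2, 60428636 to 60552987, minus strand) pairs with αv in an epithelial receptor that activates TGF-β and is known as scarce in resting and abundant in wounded epidermis. It had 6 and 1 reads in DMSO (0.858 and 0.181 CPM) and 50 and 36 reads after NEDD8i (6.21 and 4.32 CPM). Its log2 fold change of 3.23 was the largest of the set (SE 0.75, 95% interval 1.53 to 4.93, edgeR adjusted p = 0.0892), and DESeq2 called it (adjusted p = 0.021). With so few DMSO reads the value ran from 2.61 without DMSO replicate 2 to 4.72 without DMSO replicate 1.

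Itgb5 (ENSMUSG00000022817.16, chromosome 16, 33650035 to 33769708, plus strand), whose αv dimer binds vitronectin, had 18.3 and 19.6 CPM in DMSO and 7.58 and 7.21 CPM after NEDD8i, with little spread in either group. The log2 fold change was -1.35 (SE 0.34, 95% interval -2.12 to -0.59, edgeR adjusted p = 0.106), or 2.56-fold lower. Itgb8, the third of these β chains, had 16 to 44 reads a library, overlapping groups and a log2 fold change of 0.23 (95% interval -0.93 to 1.38).

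Itgav itself had 5.57 and 17.2 CPM in DMSO and 16.5 and 23.8 CPM after NEDD8i, for a log2 fold change of 0.83 (95% interval -0.31 to 1.98, edgeR adjusted p = 0.464), and without DMSO replicate 2 it was called higher at 1.87 (edgeR adjusted p = 0.000784), while without DMSO replicate 1 it stood at 0.22 (edgeR adjusted p = 0.803). Per Itgb5 read, Itgav had 0.305 and 0.88 reads in DMSO and 2.18 and 3.30 after NEDD8i. Per Itgb6 read it had 6.5 and 95 in DMSO, the latter on a single Itgb6 read, and 2.66 and 5.50 after NEDD8i. Itga6 had 5.84 and 7.52 reads per Itgb4 read in DMSO and 8.02 and 8.84 after NEDD8i. Per Itgb1 read, Itga3 was at 0.464 and 0.698 in DMSO and 0.457 and 0.44 after NEDD8i, where both NEDD8i ratios lay near that of DMSO replicate 1. These ratios are descriptions without a test, since an exact permutation test of 2 against 2 values cannot give a two-sided p below 0.333.

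**Figure D3:**
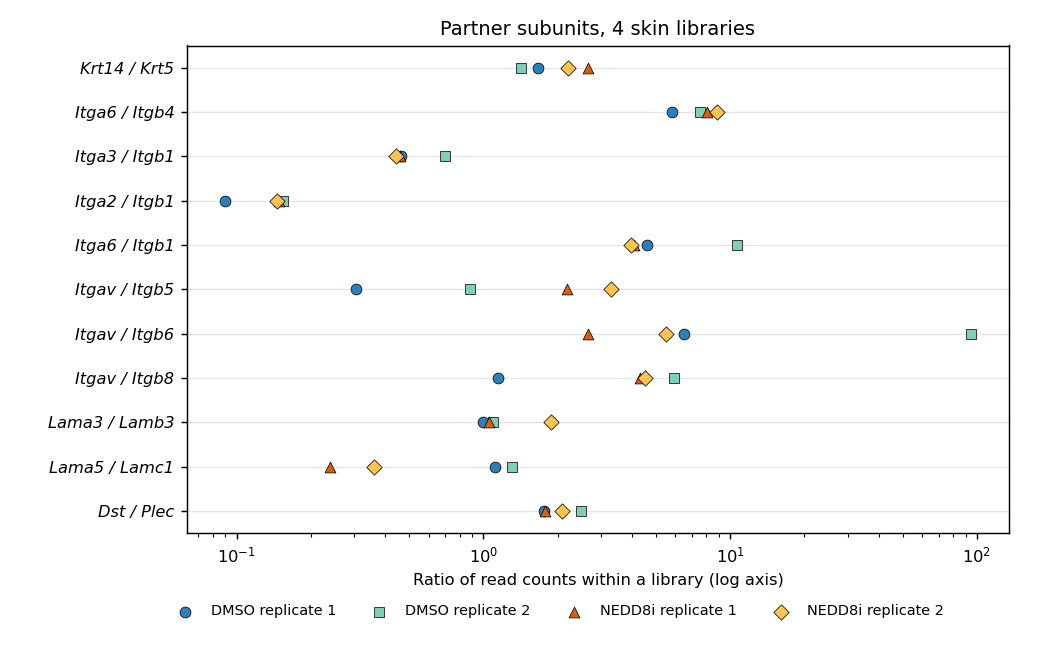
Ratio of read counts of 2 partner subunits within a library (x axis, log axis; y axis: pair), 1 point a library. Itgav per Itgb5 lies higher and Lama5 per Lamc1 lower in both NEDD8i libraries than in both DMSO libraries, while Dst per Plec overlaps.

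Promoter windows of 4 genes are printed to let a reader see which short motifs lie upstream. Itgb1, Itgb6 and Cd44 had the smallest p among the higher genes in the edgeR fit. Vcl was added outside that order, since Itga2 came before it (edgeR adjusted p = 0.128 against 0.164). RefSeq windows on GRCm38.p6, a different build from the coordinates above, were found for 24 of the 32 genes (30 windows). Each is the 250 bases before an annotated start, 5′ to 3′ on the gene's strand, and capitals mark matches on either strand to TGANTCA (AP-1), GGAATG (TEAD), CACCC (KLF) or the CArG box bound by SRF.
Itgb1, chr8:128685404-128685653, plus strand: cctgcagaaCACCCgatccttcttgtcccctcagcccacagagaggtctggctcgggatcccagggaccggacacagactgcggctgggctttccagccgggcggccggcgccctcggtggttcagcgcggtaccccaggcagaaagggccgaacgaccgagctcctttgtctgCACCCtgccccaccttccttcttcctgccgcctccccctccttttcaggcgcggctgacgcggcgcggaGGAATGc
Itgb6, the start at chr2:60673694-60673943, minus strand: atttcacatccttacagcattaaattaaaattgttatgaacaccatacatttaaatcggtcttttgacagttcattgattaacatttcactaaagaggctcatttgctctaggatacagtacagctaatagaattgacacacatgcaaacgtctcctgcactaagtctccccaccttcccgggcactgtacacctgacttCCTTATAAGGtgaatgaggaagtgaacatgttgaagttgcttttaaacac
Vcl, chr14:20929148-20929397, plus strand: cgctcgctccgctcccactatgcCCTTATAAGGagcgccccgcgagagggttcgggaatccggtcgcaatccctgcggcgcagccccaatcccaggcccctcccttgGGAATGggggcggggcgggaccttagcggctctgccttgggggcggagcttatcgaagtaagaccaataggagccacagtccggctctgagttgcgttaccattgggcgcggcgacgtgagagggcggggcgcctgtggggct
Cd44, chr2:102901666-102901915, minus strand: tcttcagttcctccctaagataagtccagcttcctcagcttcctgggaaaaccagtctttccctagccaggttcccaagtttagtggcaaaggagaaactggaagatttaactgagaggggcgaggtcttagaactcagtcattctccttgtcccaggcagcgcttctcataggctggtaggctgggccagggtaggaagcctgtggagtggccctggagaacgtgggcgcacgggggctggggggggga

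The Itgb1 window held 1 TEAD match and 2 KLF matches, the Vcl window 1 CArG box and 1 TEAD match, the printed Itgb6 window 1 CArG box, and the Cd44 window no match. The Itga2 window, not printed here, held 1 KLF match alone. Another annotated Itgb6 start (window chr2:60722604-60722853) lies further upstream on the minus strand, so the printed Itgb6 window lies inside the gene. The window of this upstream start had 1 KLF match and no CArG box. Which start was in use in these libraries was not tested. Over the 30 windows of the set, 1 held an AP-1 match (3.3%, against 6.7% of 32851 windows), 6 a TEAD match (20.0% against 12.6%), 18 a KLF match (60.0% against 52.0%) and 2 a CArG box (6.7% against 1.5%). The CArG search was added after the Vcl window had been seen, and Vcl is 1 of the 2 windows counted. The CArG share therefore includes the window that prompted the search, and nothing is drawn from it. GC content was higher in the set (median 58.4% against 52.4%). A match is a run of letters and not a shown binding site, and the absence of one says nothing of the factor.

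Cd44, the receptor for the matrix sugar hyaluronan (ENSMUSG00000005087.18, chromosome 2, 102641486 to 102732010, minus strand), was also separated between the groups. It had 132 and 99.6 CPM in DMSO (923 and 550 reads) and 320.0 and 244 CPM after NEDD8i (2577 and 2027 reads). Both NEDD8i libraries were above both DMSO libraries, with a log2 fold change of 1.28 (SE 0.32, 95% interval 0.55 to 2.01, edgeR adjusted p = 0.106), or 2.43-fold. DESeq2 called it (adjusted p = 0.00866). Leukocytes and fibroblasts also carry Cd44. The 8 macrophage markers summed to 26.2 and 18.8 CPM in DMSO and 37.1 and 29.8 CPM after NEDD8i. The 6 T cell markers summed to 38.4 and 47.8 CPM in DMSO and 34.3 and 29.0 CPM after NEDD8i. The 10 fibroblast markers summed to 60.7 and 11.2 CPM in DMSO and 39.4 and 79.9 CPM after NEDD8i. Dcn alone gave 49.3 CPM of this sum in DMSO replicate 1. Col1a1, Col1a2, Col3a1, Pdgfra, Dpt and Mfap5 were above DMSO in both NEDD8i libraries, Fbln1 was below, and Dcn, Lum and Col6a1 overlapped. Of the 10, edgeR called 1 higher. The part of these cell types in the Cd44 values was not tested.

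The matrix ligands did not move together. Lama5, the α chain of a laminin found in all basement membranes of the skin (ENSMUSG00000015647.10, chromosome 2, 179818166 to 179867652, minus strand), had 39 and 30 reads in DMSO and 11 and 17 after NEDD8i, or 5.57 and 5.43 against 1.37 and 2.04 CPM. Both NEDD8i libraries were lower, with a log2 fold change of -1.68 (SE 0.54, 95% interval -2.90 to -0.46, edgeR adjusted p = 0.174). Lamc1, the γ chain it assembles with, had 23 to 47 reads a library and a log2 fold change of 0.30 (95% interval -0.69 to 1.30). Lama5 per Lamc1 read was 1.11 and 1.30 in DMSO and 0.239 and 0.362 after NEDD8i, on low counts.

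Lama3 and Lamb3, chains of the laminin that hemidesmosomes bind, were near level. Lama3 had 11.9 and 19.2 CPM in DMSO and 16.9 and 20.9 CPM after NEDD8i (log2 fold change 0.29, 95% interval -0.53 to 1.10). Lamb3 had 11.9 and 17.6 CPM in DMSO and 16.0 and 11.2 CPM after NEDD8i (log2 fold change -0.11, 95% interval -0.96 to 0.73).

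Col7a1, the collagen of the anchoring fibrils (ENSMUSG00000025650.14, chromosome 9, 108782654 to 108813943, plus strand), had 9.58 and 40.7 CPM in DMSO and 10.9 and 10.6 CPM after NEDD8i. DMSO replicate 2 alone was high, so the log2 fold change of -1.22 (SE 0.60, 95% interval -2.61 to 0.18, edgeR adjusted p = 0.373) became 0.19 without that library and -1.93 without DMSO replicate 1 (edgeR adjusted p = 7.64e-06). Tnc, a wound matrix glycoprotein, had 7.72 and 7.24 CPM in DMSO and 2.98 and 9.13 CPM after NEDD8i. Its NEDD8i libraries lay on either side of DMSO, and the log2 fold change of -0.30 became 0.30 without NEDD8i replicate 1.

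**Figure D4:**
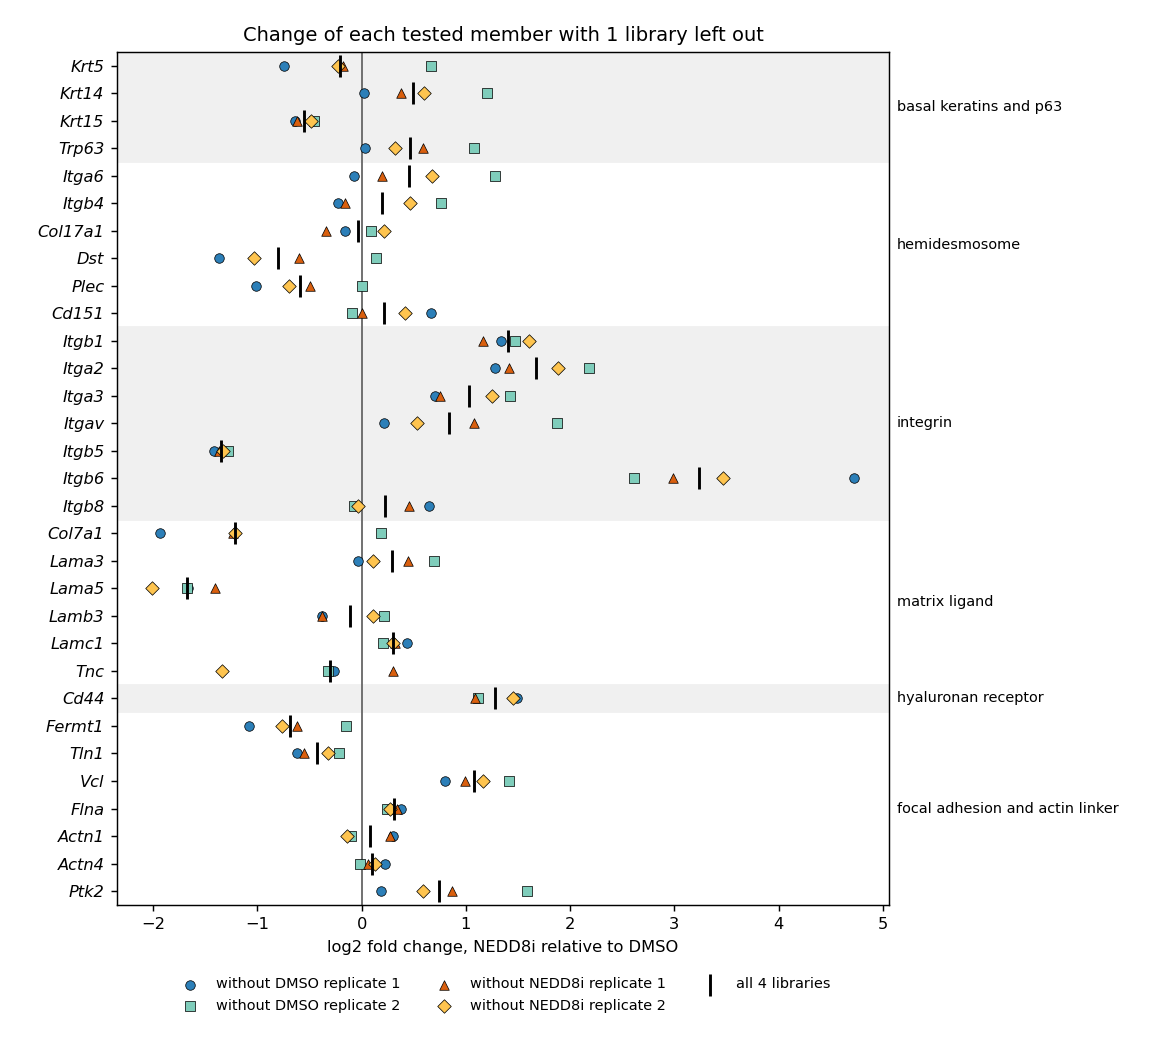
Log2 fold change of each tested gene (x axis; y axis: gene, grouped by role) with all 4 libraries (bar) and with 1 library left out (points, 4 a gene). Itgb1, Cd44, Itgb5 and Vcl keep to one side of 0, whereas Krt5, Itga6, Dst and Col7a1 lie on both sides depending on which DMSO library is left out.

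Of the 7 focal adhesion genes, Vcl, Flna and Ptk2 were above DMSO in both NEDD8i libraries and Fermt1 and Tln1 below, and none passed the test. Among all tested genes, 25% were above and 22.9% below. Vinculin strengthens the link from talin to actin, and its gene had 10.9 and 16.3 CPM in DMSO and 30.7 and 26.7 CPM after NEDD8i, with a log2 fold change of 1.08 (95% interval 0.32 to 1.84, edgeR adjusted p = 0.164). Its exons share 2090 bases with Ap3m1 on the other strand (35 and 27 reads in DMSO, 74 and 42 after NEDD8i), and no source used here says how reads over both were counted. Ptk2, encoding focal adhesion kinase, had 3.43 and 8.87 CPM in DMSO and 9.31 and 11.1 CPM after NEDD8i (log2 fold change 0.74, 95% interval -0.38 to 1.86). Without DMSO replicate 2 edgeR called Vcl (1.418, adjusted p = 0.00568) and Ptk2 (1.58, adjusted p = 0.0242) higher, and without DMSO replicate 1 it called neither (0.80, adjusted p = 0.176, and 0.19, adjusted p = 0.857).

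Talin and kindlins activate integrins. Fermt1, encoding the epidermal kindlin, had 36 and 67.2 CPM in DMSO and 30.7 and 33.3 CPM after NEDD8i (log2 fold change -0.69, 95% interval -1.48 to 0.10, edgeR adjusted p = 0.373), and it was called lower without DMSO replicate 1 (-1.08, edgeR adjusted p = 0.0126) but not without DMSO replicate 2 (-0.15, edgeR adjusted p = 0.857). Tln1, encoding talin, had 39.2 and 50.7 CPM in DMSO and 36.4 and 30.3 CPM after NEDD8i (log2 fold change -0.43, 95% interval -1.09 to 0.23). Tln1 exons share 91 bases with Creb3 on the other strand (92 and 100 reads in DMSO, 226 and 186 after NEDD8i). How reads over both were counted is again not known.

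The actin crosslinker genes had small log2 fold changes. Flna, encoding filamin A, had 27.2 and 24.3 CPM in DMSO and 31.4 and 32.2 CPM after NEDD8i, with a log2 fold change of 0.31 (95% interval -0.34 to 0.95). The α-actinin genes Actn1 and Actn4 had log2 fold changes of 0.08 (95% interval -0.61 to 0.76) and 0.10 (95% interval -0.56 to 0.75). The groups overlapped for both α-actinin genes, and both intervals exclude a log2 fold change of 1 or -1 under this model. Actn4 exons share 316 bases with Capn12 on the other strand (162 and 6 reads in DMSO, 4 and 7 after NEDD8i), with the same unknown counting.

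Other genes of the same machinery were read from 4 lists drawn up with earlier results of these data known, and none passed edgeR's threshold. Of 31 tested focal adhesion and actin linker genes, 24 had a positive log2 fold change (77.4%, against 49.9% of all tested genes), with a median of 0.31. At an unadjusted edgeR p below 0.05 were 6 higher and 1 lower (22.6%, against 16.5% of all tested genes). The adaptors Zyx (log2 fold change 1.72, SE 0.46, edgeR adjusted p = 0.127) and Pxn (1.69, SE 0.44, edgeR adjusted p = 0.117), which mark focal adhesions, had 15 to 21 reads in the DMSO libraries and 68 to 104 after NEDD8i. Of 19 tested matricellular and migration genes 15 were positive (78.9%), with a median of 0.34. The 3 at an unadjusted edgeR p below 0.05, all higher, were 15.8% of the list, near the 16.5% of all tested genes. Plau, the urokinase protease of migrating cells, had 58 and 63 reads in DMSO and 240 and 421 after NEDD8i (2.03, SE 0.37, edgeR adjusted p = 0.0519). The growth factor Hbegf had 534 and 275 reads in DMSO and 835 and 1515 after NEDD8i (1.18, SE 0.37, edgeR adjusted p = 0.17). Plaur, the receptor of urokinase, had 6 and 1 against 25 and 17 reads (2.21, SE 0.87, edgeR adjusted p = 0.251). DESeq2 called 2 genes of the 4 lists, Plau (adjusted p = 0.000654) and the membrane linker Ezr (1.04, adjusted p = 0.032).

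Other basement membrane genes were mixed, with 7 positive and 10 negative of 17 tested and a median of -0.27. At an unadjusted edgeR p below 0.05 were 2 higher and 2 lower (23.5%, against 16.5% of all tested genes). Nid1 was at 14 and 1 reads in DMSO and 37 and 52 after NEDD8i (2.23, SE 0.80, edgeR adjusted p = 0.213). On the lower side were Fras1 and Frem2, extracellular matrix proteins of the epidermal basement membrane. Fras1 had 80 and 10 reads in DMSO and 8 and 19 after NEDD8i (-2.02, SE 0.83, edgeR adjusted p = 0.272) with overlapping groups, and Frem2 had 42 and 16 reads in DMSO and 14 and 4 after NEDD8i (-2.003, SE 0.75, edgeR adjusted p = 0.228). Only 4 of 14 other integrin subunits and associated genes had enough reads to test, with Itga1 at -1.64 (SE 0.76, edgeR adjusted p = 0.329) and Itgam at 0.92 (SE 0.80, edgeR adjusted p = 0.631) at the smallest p and none at an unadjusted p below 0.05. Without DMSO replicate 1 edgeR called 9 genes of the 4 lists and without DMSO replicate 2 it called 12, beside the 10.4% and 10.7% of all tested genes given above.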

How the data were processed

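The libraries were QuantSeq 3′ FWD, per the labels' protocols, and the authors' deposited values are whole, unnormalized counts for each gene. The submitters' processing notes name STAR, featureCounts and DESeq2; their settings, including strand and multi-mapped reads, are not given in the sources used here. The notes name GRCm38 and GRCm39; 2.7% of 52029 gene starts matched GENCODE M21 on GRCm38, so the table is taken to be GRCm39. Columns were matched to samples by name, with 0 columns of sample values unused.

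Counts were tested in R 4.3.3 with edgeR 4.0.16: filterByExpr (minimum count 10, minimum total 15), TMM, a robust quasi-likelihood F test with group alone, and adjustment over all 11388 tested genes at 0.05. The common dispersion was 0.12. Intervals of log2 fold changes are 95% from the fit. No libraries were duplicates (chi-square per degree of freedom 27.1 to 76.5). Steps were tested on simulated data. Alternatives used DESeq2 1.42.0 and limma 3.58.1 (voom), other scalings and filters, the replicate number and each library left out.

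Members and lists were chosen with earlier results of these data known. Genes given in full were the 3 with the smallest p in each direction and Krt5, Krt14, Itga6, Itgb4, Col17a1 and Trp63; from each other list, the 2 with the smallest p except 1 gene that is not reported here, with Ezr, Plaur, Fras1 and Frem2 named after their values were seen.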

Additional observations from a re-analysis of the deposited data

How the results depend on the processing

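No gene of the set was called with RLE factors, limma-voom, plain library sizes (no TMM), the 3 ribosomal RNA genes left out or the fixed filter. With DESeq2, which called 3.64% of all tested genes, 3 were called (Itgb1, Itgb6 and Cd44, all higher). With no filter, where 703 of 23633 genes were called, 5 were (Itgb1, Itga2, Itgb6 and Cd44 higher, Itgb5 lower). With the replicate block, where 285 of 11388 genes were called, 2 of the set were, Itgb1 and Cd44. However, same-numbered libraries did not deviate together (correlation -0.0722), and the numbers are not known to pair the samples. With 1 library left out, calls in the set came only from the fits without a DMSO library, and these fits share both NEDD8i libraries. Fits without a NEDD8i library gave no call in the set. Calls from a single DMSO library cannot decide whether a gene changed, since that library has no spread of its own. With 1 library left out, log2 fold changes ran from 1.16 to 1.602 for Itgb1 and from -1.41 to -1.29 for Itgb5. They ran from 2.61 to 4.72 for Itgb6 and from 1.09 to 1.49 for Cd44. The calls over all genes, 89 with 76 higher and 13 lower, were 415 (236 and 179) with DESeq2, 703 (385 and 318) with no filter, 285 (179 and 106) with the replicate block, 47 with 38 higher without TMM, and 44 to 1358 (41 to 692 and 3 to 712) with 1 library left out. Calls in the 4 other lists were 2 with DESeq2, 10 with no filter, 1 with the replicate block and 0 to 12 with 1 library left out. The median log2 fold change of the set was -0.016 without TMM and 0.018 to 0.28 with 1 library left out. Without TMM the values of Cd151 (-0.033), Itgb8 (-0.016), Actn1 (-0.16) and Actn4 (-0.14) changed sign. The cause of these differences was not tested. With 1 library left out values ran across 0 for Krt5 (-0.75 to 0.67), Itga6 (-0.073 to 1.28), Itgb4 (-0.22 to 0.76), Col17a1 (-0.35 to 0.21), Dst (-1.37 to 0.14), Plec (-1.01 to 0.00066), Cd151 (-0.095 to 0.66), Itgb8 (-0.069 to 0.64), Col7a1 (-1.93 to 0.19), Lama3 (-0.033 to 0.69), Lamb3 (-0.38 to 0.22), Tnc (-1.34 to 0.30), Actn1 (-0.14 to 0.30) and Actn4 (-0.015 to 0.23). The other 17 tested genes kept their sign under every setting run. Reads were few for Itga2, Itgb6, Lama5, Lamc1 and Ptk2, and counting intervals do not cover amplification.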
